A study of Homo sapiens with 8 samples.

Results

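The 7 genes described here, PLAU, PLAT, SERPINE2, PLAUR, F2R, F2RL1 and F3, encode plasminogen activators, an inhibitor, a receptor, a pair of protease-activated receptors and tissue factor. They are a named list of 7 among the 58302 genes of the count files, and all 7 were found. The list was drawn up with the shPROX1 against Control values of these same libraries known. Their differences between the groups are therefore given as a description, without a test, and support nothing further. RNA came from RD cells, a human rhabdomyosarcoma line, which is a tumour line of the skeletal muscle lineage. The silenced cells, called shPROX1, carried a short hairpin RNA against PROX1, a homeobox transcription factor, and the Control cells carried a scrambled short hairpin RNA. Both groups were grown in the same high-glucose medium with serum and had 4 libraries each, which the series design calls biological replicates. Silencing is stated there as 75%, and neither the number of hairpins nor whether the cells were pools or clones is given in the sources used here.

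Urokinase (PLAU) and tissue-type plasminogen activator (PLAT) are secreted serine proteases that cut plasminogen into plasmin, which degrades fibrin and extracellular matrix. The urokinase receptor holds urokinase at the cell surface, and serpins such as SERPINE2 trap the active proteases. Protease-activated receptors (PARs) are G protein-coupled receptors that are switched on when a protease cuts their extracellular end. Thrombin, which is formed downstream of tissue factor, is the classical activator of the receptor encoded by F2R, and trypsin-like proteases and the tissue factor complex activate the receptor encoded by F2RL1.

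Counts assigned to genes numbered 3747090 to 4301987 in the shPROX1 libraries and 4055205 to 4865161 in the Control libraries. Levels are in CPM, counts scaled to a common library size, and a count of 0 allows up to 3 counts, or 0.609 to 0.806 CPM depending on the library, which covers counting error only. PROX1 itself had 33, 42, 34 and 35 counts in the shPROX1 libraries and 85, 66, 69 and 105 counts in the Control libraries. That is 8.91 ± 1.16 CPM in shPROX1 cells and 18.6 ± 2.50 CPM in Control cells (SD of 4 libraries each), a log2 change of -1.07 ± 0.15 (edgeR adjusted p = 4.89e-06), so its fitted level was 47.6% of Control, a smaller loss than the one stated. Of 7 markers of the muscle lineage, 6 reached a mean of 1 CPM, and their summed level was 1167 to 1251 CPM in shPROX1 libraries and 1401 to 1440 CPM in Control libraries. Of 4 fibroblast markers only THY1 reached a mean of 1 CPM, and the summed level of the list was 98.6 to 104.8 CPM in shPROX1 libraries and 69.1 to 83.9 CPM in Control libraries, while DCN, LUM and PDGFRA lay near the counting limit. The endothelial list summed to 41.6 to 46.0 CPM in shPROX1 libraries and 38.6 to 52.7 CPM in Control libraries, nearly all of it TEK, with CDH5 at 0 in every library. Leukocyte markers summed to 0.946 to 2.15 CPM in shPROX1 libraries and 0.406 to 1.18 CPM in Control libraries, with CD3E at 0, and the hepatocyte, platelet and epithelial lists stayed at or below 0.945 CPM in every library, with PF4, GP9 and KRT5 at 0. Within the muscle list MYOG had 48.4 ± 2.55 CPM in shPROX1 cells and 120.8 ± 5.63 CPM in Control cells, and MYH3 81.6 ± 2.36 CPM in shPROX1 cells and 156 ± 12.03 CPM in Control cells. MYOD1 had 73.2 ± 4.35 CPM in shPROX1 cells and 71.0 ± 7.37 CPM in Control cells, and CHRNA1 497 ± 6.85 CPM in shPROX1 cells and 493 ± 19.0 CPM in Control cells, with ranges that overlapped. The muscle sum, through part of its list, and the fibroblast sum thus moved with the groups, and their part in the results below was not tested. In bulk RNA, fewer cells of a type and less RNA per cell cannot be told apart.

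Promoter sequences, each 250 bases before to 50 bases after an annotated start, were read from RefSeq (GRCh38.p14) for 5 of the 7 members, with 2 starts each for PLAU and SERPINE2. They are shown for the 4 members with the largest difference between groups and for F3, whose promoter held matches to 3 of the motifs searched, as did that of F2RL1, and for PLAU and SERPINE2 the more GC-rich of their 2 starts is shown. Capitals mark matches, on either strand, to 6 short motifs. The element of the AP-1 factors FOS and JUN was searched as TGANTCA. The GC box that SP and KLF factors bind was searched as GGGCGG, and the TATA box near the start of some genes as TATAAA. The sequence that TEAD factors bind was searched as GGAATG, an E-box that the muscle factor MYOD1 binds as CAGCTG, and the element of the immediate early factor EGR1 as GCGTGGGCG. All promoters are written 5′ to 3′ on the strand of the gene.
F2RL1, chr5:76818780-76819079, plus strand: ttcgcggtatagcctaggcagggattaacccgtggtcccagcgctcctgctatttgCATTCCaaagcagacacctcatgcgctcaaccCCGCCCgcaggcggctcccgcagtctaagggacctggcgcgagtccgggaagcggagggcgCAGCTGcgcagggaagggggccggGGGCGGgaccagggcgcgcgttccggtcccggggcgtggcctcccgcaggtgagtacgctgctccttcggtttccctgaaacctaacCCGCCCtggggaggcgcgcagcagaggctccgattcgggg
PLAUR, chr19:43670120-43670419, minus strand: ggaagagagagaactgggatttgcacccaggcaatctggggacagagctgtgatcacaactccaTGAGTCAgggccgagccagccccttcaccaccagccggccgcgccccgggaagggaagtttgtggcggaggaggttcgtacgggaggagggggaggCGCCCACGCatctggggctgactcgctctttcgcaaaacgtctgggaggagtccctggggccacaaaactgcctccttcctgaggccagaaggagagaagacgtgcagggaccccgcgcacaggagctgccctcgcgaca
SERPINE2, chr2:224038591-224038890, minus strand: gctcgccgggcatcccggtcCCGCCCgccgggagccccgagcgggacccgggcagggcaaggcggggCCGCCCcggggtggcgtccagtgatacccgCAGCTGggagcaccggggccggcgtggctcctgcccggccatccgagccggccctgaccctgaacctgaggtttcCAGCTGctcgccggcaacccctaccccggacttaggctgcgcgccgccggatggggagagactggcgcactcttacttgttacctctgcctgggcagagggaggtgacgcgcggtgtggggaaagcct
PLAU, chr10:73910882-73911181, plus strand: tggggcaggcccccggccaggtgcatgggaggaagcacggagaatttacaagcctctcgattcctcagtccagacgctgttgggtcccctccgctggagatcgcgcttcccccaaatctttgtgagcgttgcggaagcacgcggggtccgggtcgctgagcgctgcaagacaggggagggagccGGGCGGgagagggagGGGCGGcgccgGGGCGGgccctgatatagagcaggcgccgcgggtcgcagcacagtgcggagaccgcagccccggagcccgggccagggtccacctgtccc
F3, chr1:94541710-94542009, minus strand: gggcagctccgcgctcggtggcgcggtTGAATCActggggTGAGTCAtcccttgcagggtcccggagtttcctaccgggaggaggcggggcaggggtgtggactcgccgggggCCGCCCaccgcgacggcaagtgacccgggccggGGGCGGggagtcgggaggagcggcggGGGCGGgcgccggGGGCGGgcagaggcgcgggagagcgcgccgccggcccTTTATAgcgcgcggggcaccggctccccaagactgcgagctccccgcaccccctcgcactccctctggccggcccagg

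TGANTCA stood in 2 of the 7 member promoters, those of F3, which held TGAATCA at 223 bases and TGAGTCA at 210 bases before the start, and PLAUR, which held TGAGTCA at 186 bases before it. Of 35116 RefSeq promoters of the same length, 7.71% held it on either strand. The GC box was in 5 of 7 member promoters and in 45% of all, and the E-box in 2 of 7 (F2RL1 and SERPINE2) and in 17.9% of all. A TATA box was found in F3 only, against 11.5% of all promoters, the TEAD sequence in F2RL1 only, against 14% of all, and the EGR1 sequence in PLAUR only, against 0.795% of all. All 3 of these lay on the strand opposite to the gene, so a search of the gene's own strand finds 0 of each among the members, and 4 in place of 5 promoters with a GC box. The member promoters also differed in base composition, with a GC content of 77.3% for F3, 69% for F2RL1 and 64% for PLAUR, and of 48.7% and 70% for the 2 starts of PLAU and 54% and 73.7% for those of SERPINE2, against a median of 58.7% and quartiles of 47% and 68% over all promoters. A match describes letters in a window and not a bound factor.

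**Figure D1:**
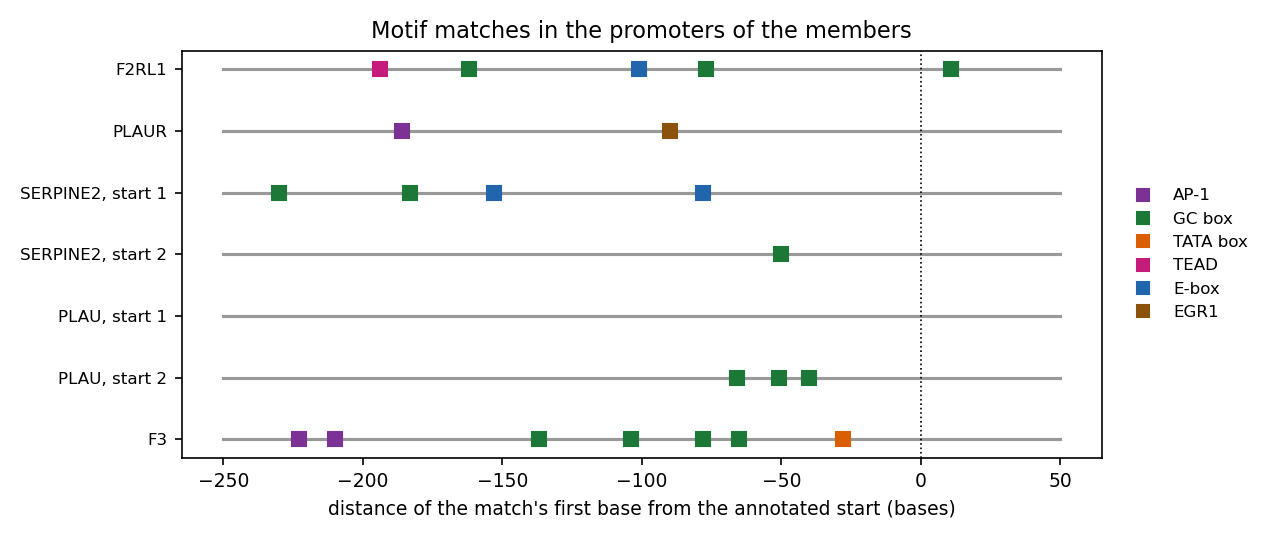
Positions of the 6 motifs in the 7 member promoters. The x axis is the distance in bases of the first base of each match from the annotated start, each grey line is a promoter, and each square a match on either strand, coloured by motif. The first start of PLAU held 0 matches, and both AP-1 matches of F3 lie more than 200 bases before its start.

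All 7 members passed the filter on low counts, and all 7 stayed above its level of 2.39 CPM in every library of both groups, so none entered through its high group alone. All 7 had a higher fitted level in shPROX1 cells than in Control cells. For 6 of the 7 every shPROX1 library lay above every Control library, which held for 16.2% of the 12392 tested genes, and F3 was the member whose groups overlapped. The log2 change exceeded 1 for 4 members, PLAU, SERPINE2, PLAUR and F2RL1, and for 1.55% of tested genes. The median log2 change of the 7 was 1.74, against -0.01 over all tested genes. Nothing is read from these counts, since the list was chosen on this contrast. Across all tested genes 35.2% differed at an edgeR adjusted p under 0.05, with 17.3% higher and 17.9% lower in shPROX1 cells.

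**Figure D2:**
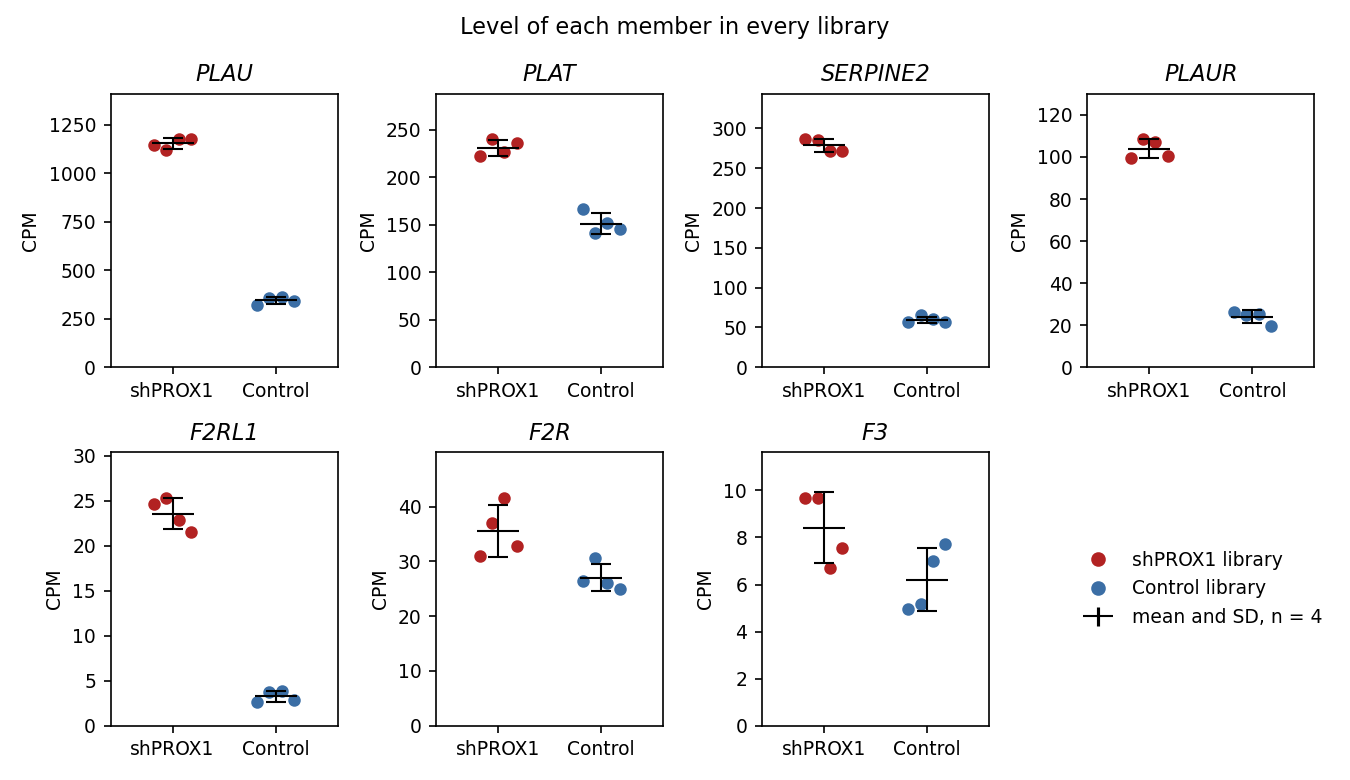
Level of the 7 members in each library, in CPM on a linear axis from 0, with shPROX1 libraries left and Control libraries right in every panel. Points are libraries and bars the mean and SD of 4 libraries. F2RL1 lay between 21.5 and 25.3 CPM in shPROX1 libraries and between 2.60 and 3.86 CPM in Control libraries, while the 2 groups of F3 overlapped.

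PLAU, which encodes urokinase (ENSG00000122861, chr10:73909177-73917497, plus strand, GRCh38), was the most abundant member. Its level was 1143, 1120, 1175 and 1174 CPM in the 4 shPROX1 libraries, against 322.2, 356.3, 363.1 and 342.1 CPM in the 4 Control libraries. The groups were far apart, and the spread within each was small beside the gap. The means were 1153 ± 26.6 CPM in shPROX1 cells and 346 ± 18.1 CPM in Control cells (SD, n = 4 each), a log2 change of 1.74 ± 0.04 (standard error), or 3.33-fold. PLAU held the 54th largest fitted rise of 12392 genes and had a level above 99.56% of tested genes in shPROX1 cells and above 96.52% in Control cells. C10orf55, looked up after its values were seen because it covers 31.05% of the PLAU exon bases on the opposite strand, had 59 counts in all in shPROX1 libraries and 19 in Control libraries. These were 0.316% of the PLAU counts in shPROX1 libraries and 0.317% in Control libraries, and since the strand setting of the counting is not given in the sources used here, reads of the shared bases cannot be told apart.

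PLAT, which encodes tissue-type plasminogen activator (ENSG00000104368, chr8:42175233-42207724, minus strand), differed less. It had 222, 239.9, 226.2 and 235.4 CPM in shPROX1 libraries and 165.9, 141.5, 151.4 and 145.6 CPM in Control libraries. The lowest shPROX1 library stood well above the highest Control library. The means were 231 ± 8.21 CPM in shPROX1 cells and 151 ± 10.7 CPM in Control cells (SD, n = 4 each), a log2 change of 0.61 ± 0.05, or 1.53-fold. Per kilobase of exon, the PLAU level was 11.2 ± 0.535 times that of PLAT in shPROX1 libraries and 5.16 ± 0.562 times in Control libraries. The ratio ran from 10.47 to 11.65 in shPROX1 libraries and from 4.36 to 5.65 in Control libraries, without overlap. The size of such multiples between genes depends on the length used, which is the same in both groups. Per kilobase of the longest transcript, PLAU had 434 and PLAT 66.7 CPM in shPROX1 cells. In Control cells PLAU had 130 and PLAT 43.6 CPM on that length.

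SERPINE2 encodes protease nexin-1 (ENSG00000135919, chr2:223975112-224039319, minus strand), a serpin that traps thrombin, urokinase and tissue-type plasminogen activator. Its level was 286.6, 285.4, 271.7 and 271.3 CPM in shPROX1 libraries and 56.96, 65.18, 60.03 and 57.25 CPM in Control libraries. No library of either group came near the range of the other. The means were 279 ± 8.41 CPM in shPROX1 cells and 59.9 ± 3.81 CPM in Control cells (SD, n = 4 each), a log2 change of 2.22 ± 0.06 and 4.66-fold, the 18th largest rise. Per kilobase of exon, the PLAU level was 12.5 ± 0.650 times that of SERPINE2 in shPROX1 libraries and 17.4 ± 0.824 times in Control libraries. The ratio was 12.02, 11.83, 13.04 and 13.04 in shPROX1 libraries and 17.05, 16.47, 18.23 and 18.01 in Control libraries. The highest shPROX1 value thus lay below the lowest Control value, although each gene was higher in shPROX1 cells. These are ratios of transcripts, and protein or enzyme activity was not measured.

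Of 16 listed inhibitors of plasminogen activators, plasmin, thrombin and the proteases that activate them, 5 were tested, with a median log2 change of -0.04. Of these 1 was called higher, 1 lower and 3 were not called, and the gene called higher is not reported here. The shares were 20% higher and 20% lower, beside 17.3% higher and 17.9% lower among all tested genes. The higher count was 2 with voom or without Control replicate 2. SERPINI1, which encodes neuroserpin, an inhibitor of tissue-type plasminogen activator, fell to 53.4 ± 2.02 CPM in shPROX1 cells, against 76.0 ± 1.28 CPM in Control cells, a log2 change of -0.51 ± 0.06 with an edgeR adjusted p of 1.1e-06. A2M, the broad protease inhibitor alpha-2-macroglobulin, had a log2 change of -0.06 ± 0.10 (edgeR adjusted p = 0.684). The other 11 lay below the filter on low counts, with at most 28 counts over all 8 libraries.

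**Figure D3:**
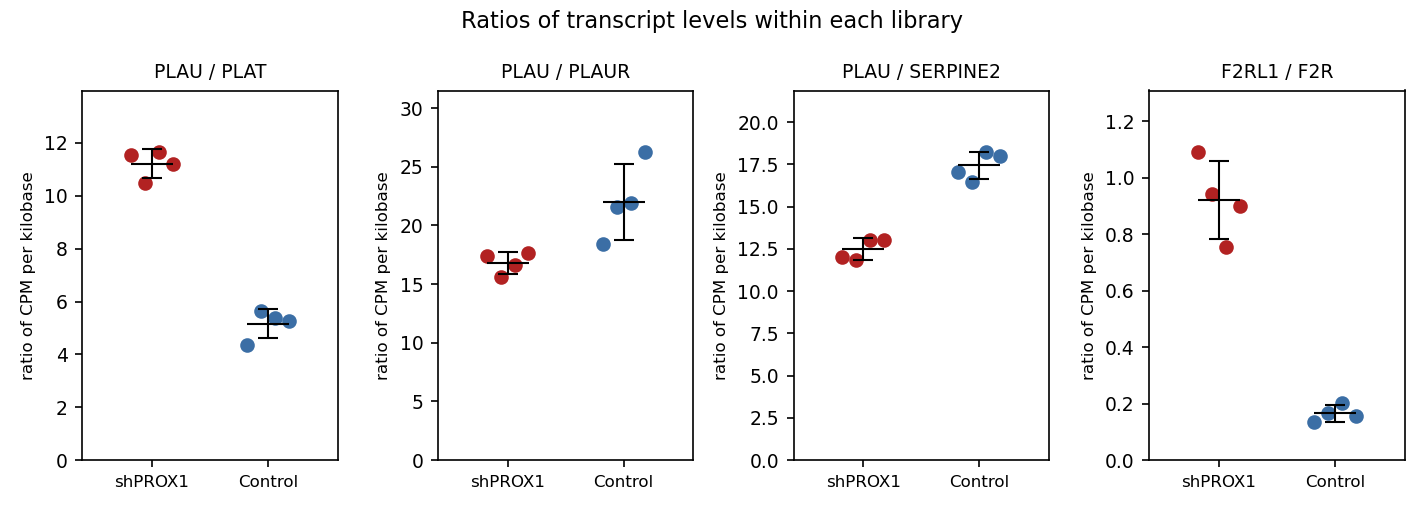
Ratios of transcript levels (CPM per kilobase of exon) within each library, with shPROX1 libraries left and Control libraries right. Points are libraries, bars the mean and SD of 4 libraries, and axes start at 0. PLAU over SERPINE2 was 12.5 ± 0.650 in shPROX1 libraries and 17.4 ± 0.824 in Control libraries, while F2RL1 over F2R was 0.922 ± 0.139 in shPROX1 libraries and 0.165 ± 0.0287 in Control libraries.

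PLAUR encodes the urokinase receptor (ENSG00000011422, chr19:43646095-43670547, minus strand), a lipid-anchored protein that binds urokinase at the cell surface. Its level was 99.31, 108.5, 106.9 and 100.6 CPM in shPROX1 libraries and 26.47, 24.94, 25.07 and 19.69 CPM in Control libraries. Every shPROX1 library was above every Control library by a wide margin. The means were 104 ± 4.58 CPM in shPROX1 cells and 24.0 ± 2.98 CPM in Control cells (SD, n = 4 each), a log2 change of 2.12 ± 0.08 and 4.34-fold, the 23rd largest rise. The PLAU level per kilobase was 16.8 ± 0.923 times that of PLAUR in shPROX1 libraries and 22.0 ± 3.23 times in Control libraries. The ratio ran up to 17.64 in shPROX1 libraries and started at 18.39 in Control libraries, so the 2 ranges were close but separate. These multiples would be smaller on the longest transcript. On it PLAU had 434 and PLAUR 64.5 CPM per kilobase in shPROX1 cells, and 130 and 14.9 in Control cells.

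Integrins that cooperate with the urokinase receptor were among the partner genes that rose. Of 19 listed partners and clearance receptors 11 were tested, with 8 higher, 1 lower and 2 not called and a median log2 change of 0.28. That is 72.7% higher and 9.09% lower, beside 17.3% higher and 17.9% lower among all tested genes. The higher count was 5 without shPROX1 replicate 2, and the lower count moved between 0 and 2 as single libraries were left out, being 2 without shPROX1 replicate 1, 2 or 4 or Control replicate 1 or 2, and 0 without Control replicate 3. ITGA5, a subunit of the fibronectin receptor, had a log2 change of 0.72 ± 0.06 (edgeR adjusted p = 2.02e-09). ITGAV and ITGB5, which pair as a vitronectin receptor, changed by 0.43 ± 0.05 (edgeR adjusted p = 2.25e-07) and 0.44 ± 0.09 (edgeR adjusted p = 0.000646). LRP8, a lipoprotein receptor of the family that takes up protease and serpin complexes, changed by 0.50 ± 0.05 (edgeR adjusted p = 1.24e-07). The other 8 listed genes lay below the filter on low counts, with at most 68 counts over all 8 libraries. The most abundant of these, a receptor of the same family as LRP8, went the other way without a test. It had 0.929 ± 0.377 CPM in shPROX1 cells and 3.01 ± 1.06 CPM in Control cells.

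The main clearance receptor of urokinase and serpin complexes did not pass the test. LRP1 had 22.7 ± 1.53 CPM in shPROX1 cells and 26.6 ± 2.60 CPM in Control cells, a log2 change of -0.23 ± 0.10 (edgeR adjusted p = 0.0894), and it passed without Control replicate 2 (edgeR adjusted p = 0.043). SORL1, a sorting receptor, had a log2 change of -0.17 ± 0.07 (edgeR adjusted p = 0.0707), and passed without shPROX1 replicate 2 (0.0398) or without Control replicate 1 (0.0318). VTN, which encodes vitronectin, the matrix ligand of the urokinase receptor, was at 0.118 ± 0.236 CPM in shPROX1 cells and at 0 counts in every Control library, all below the counting limit.

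Plasminogen itself, the substrate of both activators, was not detectable at this depth. PLG had 0.315 ± 0.149 CPM in shPROX1 cells and 0.163 ± 0.199 CPM in Control cells, below the limit that a count of 0 allows. Of 8 genes for plasminogen and the proteins that hold it at the surface 5 were tested, with 3 higher, 1 lower and 1 not called. These shares were 60% higher and 20% lower, beside 17.3% higher and 17.9% lower among all tested genes. The annexin 2 complex, which binds plasminogen and tissue-type plasminogen activator, was higher in both of its subunits. S100A10 had 47.1 ± 5.84 CPM in shPROX1 cells and 26.4 ± 1.82 CPM in Control cells, a log2 change of 0.83 ± 0.10 (edgeR adjusted p = 4.65e-07), and ANXA2 changed by 0.58 ± 0.05 (edgeR adjusted p = 1.1e-09). ENO1, a glycolytic enzyme that also binds plasminogen at the surface, changed by 0.29 ± 0.03 (edgeR adjusted p = 3.29e-07), and KRT8 by 0.31 ± 0.17 without passing (edgeR adjusted p = 0.175). Processed copies of ANXA2, ENO1 and KRT8 exist in the genome, so their counts may be split. PLGRKT, a plasminogen receptor of the membrane, fell to 2.20 ± 0.825 CPM in shPROX1 cells, against 4.75 ± 0.645 CPM in Control cells, a log2 change of -1.12 ± 0.28 (edgeR adjusted p = 0.00298).

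Among 27 proteases known to cut pro-urokinase, plasminogen or a PAR, 4 were tested, of which 3 were higher and 1 not called. The share higher was 75% and the share lower 0%, beside 17.3% higher and 17.9% lower among all tested genes. The other 23 listed proteases were below the filter, 11 of them at 0 counts in all 8 libraries, and none exceeded 20 counts in sum. CTSL, a lysosomal cathepsin, had 129 ± 5.65 CPM in shPROX1 cells and 74.2 ± 4.54 CPM in Control cells, a log2 change of 0.80 ± 0.06 (edgeR adjusted p = 3.06e-10). CTSS changed by 0.46 ± 0.11 (edgeR adjusted p = 0.00293). CTSB changed by 0.16 ± 0.06 (edgeR adjusted p = 0.0474), a call lost on leaving out any of 6 libraries (shPROX1 replicate 2, 3 or 4, or Control replicate 2, 3 or 4), with edgeR adjusted p of 0.0664 to 0.153. MMP14, a membrane matrix metalloproteinase, had a log2 change of -0.04 ± 0.08 (edgeR adjusted p = 0.748).

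F2RL1 encodes PAR-2 (ENSG00000164251, chr5:76818933-76835315, plus strand) and differed most among the members. Its counts were 104, 102, 85 and 91 in shPROX1 libraries and 11, 15, 16 and 14 in Control libraries, or 24.6, 25.3, 22.8 and 21.5 CPM in shPROX1 libraries and 2.60, 3.70, 3.86 and 2.84 CPM in Control libraries. No shPROX1 library came near the range of the Control libraries. The means were 23.6 ± 1.74 CPM in shPROX1 cells and 3.25 ± 0.623 CPM in Control cells (SD, n = 4 each), a log2 change of 2.86 ± 0.17 and 7.24-fold, the 6th largest rise of all. Its level was above that of 39.99% of tested genes in shPROX1 cells and of 4.82% in Control cells.

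F2R encodes PAR-1, the thrombin receptor (ENSG00000181104, chr5:76716043-76735781, plus strand), and differed least by fold. Its level was 30.98, 37.01, 41.65 and 32.81 CPM in shPROX1 libraries and 26.47, 30.61, 26.04 and 24.97 CPM in Control libraries. The lowest shPROX1 library was only just above the highest Control library. The means were 35.6 ± 4.75 CPM in shPROX1 cells and 27.0 ± 2.48 CPM in Control cells (SD, n = 4 each), a log2 change of 0.40 ± 0.10 and 1.32-fold, with the 1083rd largest rise. F2RL2, which encodes PAR-3, a thrombin-binding receptor, is no member and rose to 14.5 ± 1.21 CPM in shPROX1 cells, against 7.07 ± 0.513 CPM in Control cells, a log2 change of 1.04 ± 0.15 (edgeR adjusted p = 9.54e-06). F2RL3, which encodes PAR-4, had 0 counts in every shPROX1 library and 1 count over the 4 Control libraries.

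Per kilobase of exon, the makeup of the PAR transcripts differed between the groups. F2R made up 41.7% ± 3.68 of the 4 PAR levels in shPROX1 libraries and 67.6% ± 2.35 in Control libraries. F2RL1 made up 38.0% ± 2.70 in shPROX1 libraries and 11.2% ± 1.69 in Control libraries, whereas F2RL2 held 20.3% ± 2.26 in shPROX1 libraries and 21.1% ± 1.66 in Control libraries (SD, n = 4 each). The shares of F2R and F2RL1 did not overlap between groups and those of F2RL2 did. The F2RL1 level was 0.922 ± 0.139 of the F2R level in shPROX1 libraries, with 1 library above parity (1.09), and 0.165 ± 0.0287 of it in Control libraries. The 4 receptors summed to 21.0 ± 1.15 CPM per kilobase in shPROX1 libraries and 9.82 ± 0.776 in Control libraries.

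**Figure D4:**
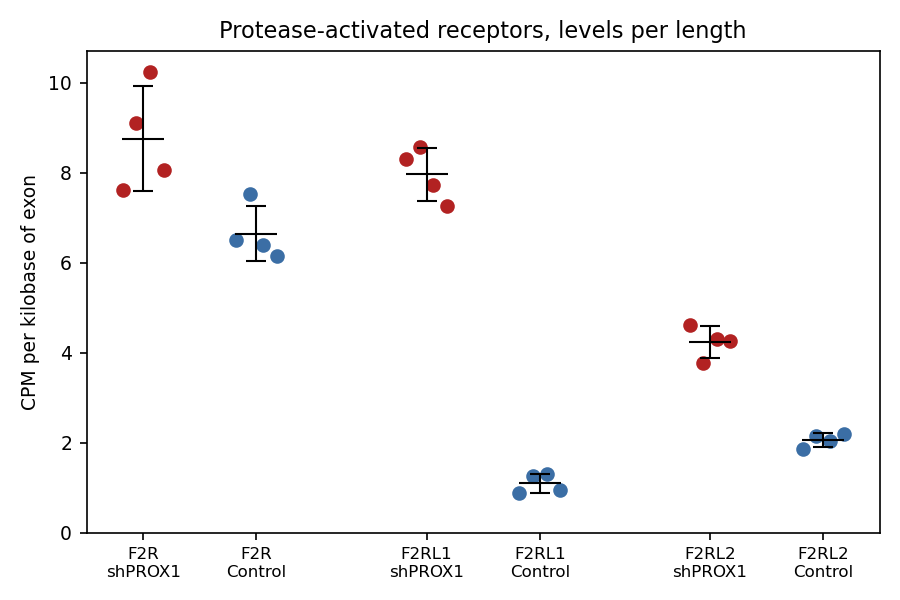
Levels of F2R, F2RL1 and F2RL2 in CPM per kilobase of exon, with shPROX1 libraries left and Control libraries right for each gene. Points are libraries and bars the mean and SD of 4 libraries, on an axis from 0. F2RL1 averaged 7.97 ± 0.587 in shPROX1 libraries and 1.10 ± 0.211 in Control libraries, beside 8.76 ± 1.17 in shPROX1 libraries and 6.65 ± 0.609 in Control libraries for F2R.

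The 3 detected receptor genes lie in a row on chromosome 5. F2RL2 (chr5:76615482-76623434, minus strand) ends 92.61 kb before the start of F2R, and F2R ends 83.15 kb before the start of F2RL1. Between 500000 bases before F2RL2 and 500000 bases after F2RL1, 5 genes were tested, the 3 receptors and 2 others, both named after their values were seen. Both had negative log2 changes, of which 1 passed the test. AGGF1, an angiogenic factor gene, fell to 56.1 ± 4.92 CPM in shPROX1 cells, against 70.7 ± 1.24 CPM in Control cells, a log2 change of -0.33 ± 0.07 (edgeR adjusted p = 0.000612), and the antisense RNA gene ZBED3-AS1 had a log2 change of -0.52 ± 0.27 (edgeR adjusted p = 0.135).

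Of 26 listed genes for other PARs, their G proteins, effectors and trafficking proteins 23 were tested, with 4 higher (17.4%), 3 lower (13%) and 16 not called and a median log2 change of 0.03, beside 17.3% higher and 17.9% lower among all tested genes. The share higher was thus close to that of all genes. The lower count was 1 without shPROX1 replicate 1 or without shPROX1 replicate 4. GNAI2, a G protein alpha subunit, changed by 0.24 ± 0.06 (edgeR adjusted p = 0.00168), while GNAI3, the most abundant gene of the list that was not called, had a log2 change of -0.01 ± 0.05 (edgeR adjusted p = 0.888). ARHGEF1, a guanine nucleotide exchange factor that such receptors use, fell by 0.35 ± 0.10 on the log2 scale (edgeR adjusted p = 0.0106), a call lost without shPROX1 replicate 1 (0.0583). SNX1, a sorting nexin that takes activated PAR-1 to degradation, fell by 0.25 ± 0.08 on the log2 scale (edgeR adjusted p = 0.0157), a call lost without shPROX1 replicate 4 (0.0856).

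Transcripts that thrombin or another PAR agonist is known to raise in other cell types went in both directions. Of 13 listed 7 were tested, with 4 higher, 1 lower and 2 not called and a median log2 change of 0.48. That is 57.1% higher and 14.3% lower, beside 17.3% higher and 17.9% lower among all tested genes. The higher count was 3 without shPROX1 replicate 1, 3 or 4 or without Control replicate 1, 2 or 3. It was 3 also with upper-quartile factors, no filter, DESeq2, voom or the replicate block. CCN2, a matricellular protein, had 15.4 ± 3.17 CPM in shPROX1 cells and 4.34 ± 1.46 CPM in Control cells, a log2 change of 1.82 ± 0.21 (edgeR adjusted p = 2.92e-07). Its relative CCN1 changed by 1.36 ± 0.20 (edgeR adjusted p = 9.41e-06). CXCL8, which encodes the chemokine interleukin-8, fell to 10.3 ± 2.72 CPM in shPROX1 cells, against 15.1 ± 1.92 CPM in Control cells, a log2 change of -0.56 ± 0.17 (edgeR adjusted p = 0.0121), a call lost without shPROX1 replicate 4 (0.0582). FOS, an immediate early transcription factor, had a log2 change of 0.48 ± 0.26 (edgeR adjusted p = 0.157).

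F3 encodes tissue factor (ENSG00000117525, chr1:94529225-94541800, minus strand), the membrane receptor of factor VII that starts coagulation. Its level was 9.70, 9.69, 6.72 and 7.55 CPM in shPROX1 libraries and 4.96, 5.19, 6.99 and 7.71 CPM in Control libraries. The groups overlapped, with 2 shPROX1 libraries inside the Control range and 2 above it. The means were 8.41 ± 1.51 CPM in shPROX1 cells and 6.21 ± 1.35 CPM in Control cells (SD, n = 4 each), a log2 change of 0.43 ± 0.20 and 1.35-fold. The coefficient of variation was 18.0% in shPROX1 cells and 21.7% in Control cells, close to the 17.1% in shPROX1 cells and 19.2% in Control cells that counting alone gives at these levels.

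Regulators of tissue factor and thrombin were among the coagulation genes that rose. Of 27 listed coagulation genes 14 were tested, with 8 higher, 2 lower and 4 not called and a median log2 change of 0.20. That is 57.1% higher and 14.3% lower, beside 17.3% higher and 17.9% lower among all tested genes. The genes called higher that are not named below had log2 changes of 0.20 to 0.45. The gene called lower that is not named below had a log2 change of -0.73 ± 0.055 (edgeR adjusted p = 4.29e-10). TFPI2, an inhibitor of tissue factor and plasmin, had 101.5 ± 2.91 CPM in shPROX1 cells and 38.2 ± 2.64 CPM in Control cells, a log2 change of 1.41 ± 0.07 (edgeR adjusted p = 1.42e-13). PROCR, the endothelial protein C receptor, which shares 12.85% of its exon bases with an opposite-strand gene, changed by 1.12 ± 0.07 (edgeR adjusted p = 4.42e-11). THBD, which encodes thrombomodulin, the thrombin receptor that starts protein C activation, changed by 0.95 ± 0.30 (edgeR adjusted p = 0.0161), a call lost without shPROX1 replicate 3 (0.0677) or without Control replicate 1 (0.0508).

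TFPI, the main inhibitor of the tissue factor complex, named after its values were seen, rose to 268 ± 7.21 CPM in shPROX1 cells, against 151 ± 9.89 CPM in Control cells, a log2 change of 0.83 ± 0.05 (edgeR adjusted p = 2.42e-11). The F3 level per kilobase was 0.128 ± 0.0221 of that of TFPI in shPROX1 libraries and 0.167 ± 0.0318 in Control libraries, and the ranges overlapped. F13A1, the fibrin-linking factor XIII, fell by 0.86 ± 0.26 on the log2 scale (edgeR adjusted p = 0.0111), and GGCX, the enzyme of vitamin K-dependent carboxylation, had a log2 change of -0.07 ± 0.06 (edgeR adjusted p = 0.407). F7, which encodes the ligand of tissue factor, had 0 counts in all 8 libraries, and F2, which encodes prothrombin, had 0.0591 ± 0.118 CPM in shPROX1 cells and 0.102 ± 0.203 CPM in Control cells, below the counting limit.

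Over the 7 partner lists, which hold 135 different genes, 68 genes were tested and 67 lay below the filter, 23 of them at 0 counts throughout. Of the 68 tested, 30 (44.1%) were higher and 9 (13.2%) lower in shPROX1 cells, beside 17.3% higher and 17.9% lower among all tested genes, and 29 were not called. Their median log2 change was 0.13. The lists were drawn up with earlier results of these data known, so these shares describe them and nothing is called particular to them.

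**Figure D5:**
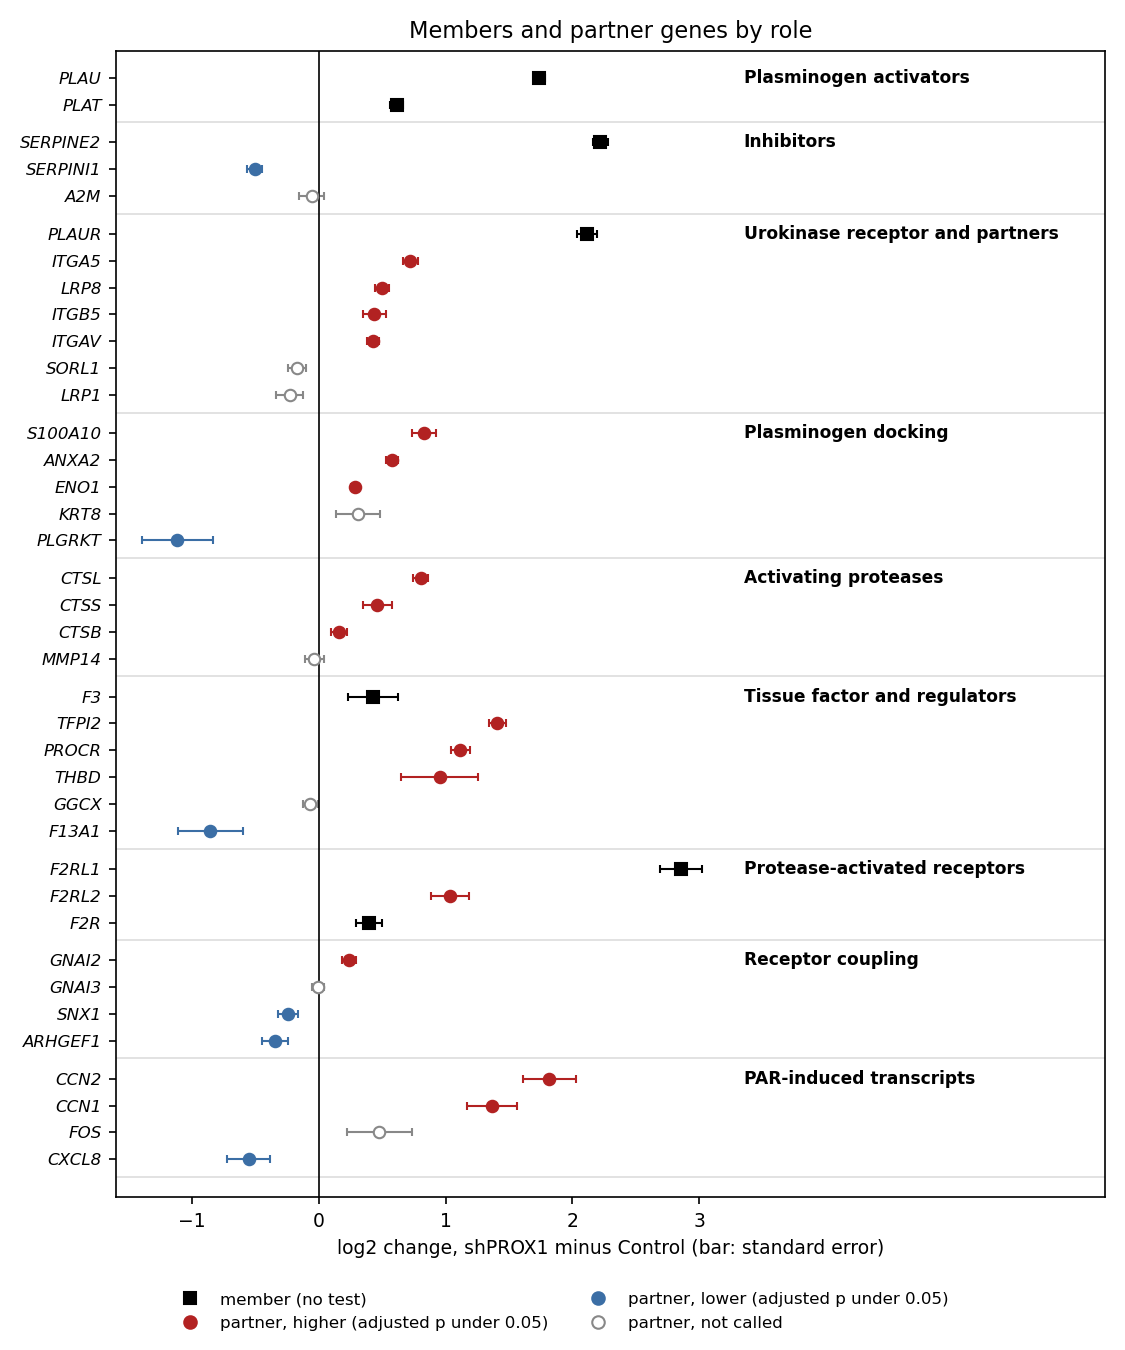
Log2 change (shPROX1 minus Control) of the members and of named partner genes, grouped by role, with the standard error of the edgeR fit as a bar. Black squares are members, which carry no test, filled circles are partner genes with an adjusted p under 0.05 and open circles those above it. The members F2RL1 (2.86), SERPINE2 (2.22), PLAUR (2.12) and PLAU (1.74) lie to the right, and PLGRKT (-1.12) lies farthest to the left.

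The order of the members by level differed between the groups. In shPROX1 cells it ran PLAU (391 ± 9.02 CPM per kilobase of exon), PLAT (34.9 ± 1.24), SERPINE2 (31.4 ± 0.946), PLAUR (23.3 ± 1.03), F2R (8.76 ± 1.17), F2RL1 (7.97 ± 0.587) and F3 (2.93 ± 0.527), and only the F2R and F2RL1 ranges overlapped. In Control cells it ran PLAU (117 ± 6.13), PLAT (22.8 ± 1.62), SERPINE2 (6.73 ± 0.428), F2R (6.65 ± 0.609), PLAUR (5.39 ± 0.669), F3 (2.16 ± 0.470) and F2RL1 (1.10 ± 0.211), and only the SERPINE2 and F2R ranges overlapped. F2RL1 was thus sixth in shPROX1 cells and last in Control cells. On this length PLAUR stood before F2R in shPROX1 cells and after it in Control cells. With the length of the longest transcript in place of all exon bases, PLAUR stood before SERPINE2, at 64.5 in shPROX1 cells and 14.9 CPM per kilobase in Control cells, beside 46.5 in shPROX1 cells and 9.99 in Control cells for SERPINE2, and its range overlapped that of PLAT in shPROX1 cells. On that length PLAUR also stood before F2R in both groups, with F2R at 7.07 CPM per kilobase in Control cells, so the change of order between PLAUR and F2R was not seen.

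The coefficient of variation between libraries was 2.31% in shPROX1 cells and 5.22% in Control cells for PLAU, 3.02% in shPROX1 cells and 6.36% in Control cells for SERPINE2, and 3.55% in shPROX1 cells and 7.08% in Control cells for PLAT. Counting alone gives 1.46% in shPROX1 cells and 2.58% in Control cells for PLAU, below its spread, and 2.97% in shPROX1 cells and 6.21% in Control cells for SERPINE2. For PLAT counting gives 3.27% in shPROX1 cells and 3.91% in Control cells, so that its Control spread exceeded counting. The spread of PLAUR was 4.41% in shPROX1 cells and 12.4% in Control cells, beside 4.88% in shPROX1 cells and 9.83% in Control cells from counting. For F2R the spread was 13.3% in shPROX1 cells and 9.16% in Control cells, beside 8.35% in shPROX1 cells and 9.25% in Control cells from counting. For F2RL1 it was 7.37% in shPROX1 cells and 19.1% in Control cells, below the 10.2% in shPROX1 cells and 26.7% in Control cells from counting.

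The genes with the most similar profile over the 8 libraries were found as those with the smallest root mean square difference in centred log2 CPM, over 10527 protein-coding genes whose mean reached 5 CPM. AK5 was the nearest to PLAUR (0.132), and IL7R the second nearest of both PLAUR (0.146) and SERPINE2 (0.128). For PLAU the nearest were NOG (0.055) and DCBLD2 (0.058), and for PLAT PDGFA and MSRB3 (0.047 each). The nearest genes to F2RL1 were farther away, with AMIGO2 at 0.249 and CAV1 at 0.260. F2R was nearest to AKIP1 (0.070), and F3 to STX3 (0.137) and ZFP69B (0.140). With a smaller prior count of 0.5, 1 of the 2 nearest genes changed for PLAT, F2R, F2RL1 and F3. The libraries form 2 groups, so a small difference mainly means a similar contrast between them.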

How the data were processed

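Total RNA of RD cells gave 8 libraries, made with a strand-keeping kit per the labels' protocols. Each library has its own table of raw counts, deposited by the authors without normalization. The submitters' processing notes name the build GRCh38 and the tools HISAT2, HTSeq, FastQC and DESeq2, and versions, annotation and the strand setting of counting are not given in the sources used here. Groups and replicate numbers came from the labels. Of 58302 gene identifiers 58039 matched GENCODE 29, which gave exon lengths and 1-based coordinates. Symbols came from a separate list of gene names, or from GENCODE 29 where that list had none. A chi-square comparison of counts (genes with at least 20) found more than sampling noise in all 12 within-group pairs of libraries, so each was kept. P-values weigh the difference between groups against the spread between these libraries, estimated in part over all genes. Variation between separate silencings may not be covered, since the number of hairpins and the use of pools or clones are not given.

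The count test was that of edgeR 4.0.16 under R 4.3.3 (TMM, filterByExpr by group, quasi-likelihood F test, two-sided) with Benjamini-Hochberg adjustment over 12392 genes at a threshold of 0.05. The code was tested on simulated data. CPM use the TMM-scaled library sizes, and levels per kilobase use the union of exons. Log2 changes are shPROX1 minus Control ± standard error. Other settings were scaling by upper quartile or RLE, no filter or a filter of 1 CPM in 4 libraries, limma 3.58.1 (voom), DESeq2 1.42.0, a replicate block, leaving out single libraries, a threshold of 0.01, transcript length and prior count. Motifs were searched in RefSeq promoters (GRCh38.p14), and PLAT and F2R are named only. Tables and figures were made with Python 3.11.15, numpy 2.4.6, pandas 2.3.3 and matplotlib 3.10.9.

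The members and lists were chosen with earlier results of these data known. Named genes were the members, PROX1, 9 genes given whatever their values, up to 4 called genes per partner list with the largest change at a mean of at least 1 CPM and its most abundant uncalled gene, and the 2 nearest profiles of each member. TFPI, C10orf55, AGGF1 and ZBED3-AS1 were added after their values were seen. A few genes that this rule names are not reported here.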

Additional observations from a re-analysis of the deposited data

Results flagged for a closer look

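Among 40 genes named with levels per library, 3 of the 80 groups of 4 libraries held a library whose gap to the nearest of the others exceeded Dixon's critical share of the whole range, and chance alone gives about 1 in 20 groups. None was a group of a member gene. CCN2 had 6.51 CPM in Control replicate 3, against 3.46 to 3.86 CPM in the other Control libraries. CXCL8 had 12.3 CPM in Control replicate 3, against 15.8 to 16.5 CPM in the other Control libraries. LRP1 had 24.99 CPM in shPROX1 replicate 3, against 21.86 to 21.99 CPM in the other shPROX1 libraries.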

How the results depend on the processing

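The log2 changes of the 7 members were recomputed under 15 settings each and moved by less than the spread between replicates in all of them: F2RL1 stayed within 2.77 to 2.95, SERPINE2 within 2.20 to 2.26, PLAUR within 2.03 to 2.17, PLAU within 1.70 to 1.76, PLAT within 0.58 to 0.66, F3 within 0.33 to 0.56 and F2R within 0.32 to 0.46. The partner genes called lower numbered 9, against 5 with DESeq2 and 3 at an adjusted p under 0.01, and those called higher 30, against 21 to 30 under the alternatives run. Genes called in all numbered 4364, against 3483 with DESeq2 and 2986 at an adjusted p under 0.01. Same-numbered libraries showed little shared deviation from their group means (correlations -0.07 to 0.06). These correlations cannot show whether such libraries were prepared together. With the replicate number as a block 4187 genes were called, with 27 partner genes higher and 8 lower. Of 480 recomputed values of named partner genes, 459 kept their side of the threshold, 18 lost and 3 gained a call, and the cause was not tested. CTSB lost its call also with upper-quartile factors, no filter, DESeq2, voom and the block (0.0505 to 0.0832). F13A1 (0.0613) and SNX1 (0.0683) lost their call with DESeq2. Depth limits the precision of genes of few counts, F3 among them, and proteins were not measured.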
